A study of Mus musculus with 9 samples.

Results

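The genes described here are the solute carriers, the membrane proteins that move nutrients, metabolites and ions across the plasma membrane and the membranes of organelles. Members were the gene symbols made of Slc, a family number, a letter and a member number, at 1 TPM or more in at least 3 of the 9 RNA-seq libraries, without the iron carriers Slc40a1, Slc11a1 and Slc11a2. This rule kept 193 of the 371 Slc symbols in a table of 24411 gene symbols. Measured levels were thus used to choose the members, but no difference between groups was. Of the symbols not kept, 3 were left out by name and 175 were under the level limit, of which 73 were listed at 0 in all 9 lines, 83 were above 0 but under 1 TPM in every line, and 19 reached 1 TPM in 1 or 2 lines. The members nearest above the limit were Slc12a5 and Slc16a5, whose third-highest values were 1.07 and 1.11 TPM. Those nearest below it were Slc18a1 and Slc16a4, at 0.94 and 0.91 TPM. Slc35f3 was the only member that reached 1 TPM in a single group, the FL lines.

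Solute carriers are grouped by sequence into numbered families, and members of a family often share a kind of substrate. Some are facilitators, which let a solute run down its gradient, and others use the gradient of sodium, protons or another solute to drive transport. In macrophages they bring in glucose and amino acids, export lactate, empty lysosomes of the sugars, amino acids, nucleosides and heme that digestion of engulfed cells releases, and control zinc and copper. A family number does not prove transport. Among the members, 4 are not carriers by their own sequence (the scaffold gene Slc9a3r1, the adaptor gene Slc4a1ap, the opposite-strand gene Slc7a6os and the pseudogene Slc2a4rg-ps).

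The study expanded macrophages of C57BL/6 mice for months in culture to ask which features they keep from their origin. Yolk sac at E9.5 gave the YS lines, fetal liver at E14.5 gave the FL lines, and marrow of adult mice gave the BM lines, with 3 lines per group and 1 library per line. The labels name no transgene and no drug for these libraries, and all 9 lines grew in medium with 10% serum and 100 ng/mL human M-CSF, the growth factor that macrophages need. Cells of several mice were pooled before culture and a line was a bulk culture from a separate dish or well, so that p-values measure the spread between lines and not between animals.

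The deposited unit was TPM, the number of reads per transcript length scaled to an equal sum in each library. It keeps no depth, so precision was read from how far the 3 lines of a group differed. For each gene, 1 estimate of this spread was shared by the 3 groups, also where only 2 of them were compared. Differences were tested by limma on log2(TPM + 1) over all 11753 genes that passed the level limit. A gene was called when its Benjamini-Hochberg adjusted p over all of these genes was under 0.1 and its change more than 2-fold. All log2 differences below are on this scale, which understates the change of low genes. The median difference over all genes tested was 0.11 (YS against BM), 0.09 (FL against BM) and 0.02 (YS against FL). It became 0 under median-of-ratios scaling, and the values below can be read against it. YS and FL lines were both compared with the same BM lines, and each pair of comparisons shares a group. With 3 lines against 3, an exact permutation test of a single value cannot go below 0.1.

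The macrophage markers Csf1r, Adgre1, Itgam, Cd68 and Mertk were at 9.67 TPM or more in all 9 lines, and Fcgr1 was at 110.13 to 329.94 TPM in YS and FL lines against 5.47, 42.10 and 1.68 TPM in the BM lines. Of 7 osteoclast markers, Ctsk was at 333.37, 90.21 and 1270.20 TPM in the BM lines and at 3.24 TPM or less in the other lines, and Atp6v0d2 was called lower in YS and FL lines than in the BM lines. Other markers of this list went another way. Dcstamp was called higher in YS and lower in FL than in the BM lines. It had 44.01, 28.68 and 5.16 TPM in the YS lines and 6.15 TPM or less elsewhere. Acp5 and Ocstamp were highest in YS line 1, at 6.86 and 3.70 TPM. Calcr was at 0.04 TPM or less in every line and Oscar at 0.25 TPM or less. The summed level of the 7 ranged from 103.1 to 1300 TPM in the BM lines, from 6.29 to 59.44 TPM in the YS lines and from 4.14 to 7.39 TPM in the FL lines. Of the 4 megakaryocyte markers, Pf4 was at 38.46 to 392.57 TPM in the BM lines and at 226.33 to 2121.79 TPM in the others, while Itga2b stayed at 0.36 TPM or less. Defining markers of mast cells, hepatocytes, fibroblasts, B cells and T cells were at 0.87 TPM or less throughout. Among other markers called, the endothelial Kdr was at 0.29 to 54.35 TPM in YS and FL lines and 0.86 TPM or less in the BM lines. Of the other endothelial markers, Cdh5 was called higher in FL than in the BM lines but stayed at 1.38 TPM or less in every line. Pecam1 had 4.91, 8.17 and 0.29 TPM in the YS lines and 0.56 TPM or less elsewhere. Tek was at 0.04 TPM or less in every line, and Emcn was listed at 0. The neutrophil gene S100a8 was at 10.49 to 25.11 TPM in the FL lines and 5.00 TPM or less elsewhere, with S100a9 and Elane at 0. The part of such cells in the results below was not tested.

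BM line 2 stood apart from the other BM lines for some genes. Of the 11753 genes tested, 72 were more than 4-fold above both other BM lines in it, against 4 in BM line 1 and 7 in BM line 3. No member was more than 4-fold apart in any BM line. Its correlations with BM lines 1 and 3 were 0.979 and 0.975, against 0.985 between BM lines 1 and 3. Of the genes that reached 20 TPM in YS line 2, 45 were under 0.5 TPM in BM lines 1 and 3, and their median level in BM line 2 was 14.1% of that in YS line 2. For the 38 genes chosen in the same way from FL line 2, it was 5.77% of that in FL line 2. Both sets were chosen for low levels in BM lines 1 and 3, which by itself favours a higher level in BM line 2. BM line 2 also held 214.99 TPM of the hemoglobin gene Hba-a1 against 8.62 TPM or less elsewhere. Among the 19 members called higher in YS than in the BM lines, BM line 2 had the highest value of the BM lines for 14, and among the 10 called lower it had the lowest value for 9. Over all 193 members it was the highest BM line for 56 and the lowest for 81. Without BM line 2, 25 members were called between YS and BM lines, 23 of them among the 29 called with all lines, and 32 between FL and BM lines, 31 of them shared. Lost without it were the calls of Slc13a3, Slc16a1, Slc22a4, Slc24a5, Slc2a3 and Slc7a11 for YS lines and of Slc24a5 for FL lines, and gained were those of Slc15a3 and Slc16a7 for YS lines and of Slc38a1 for FL lines. YS line 1 was more than 4-fold above both other YS lines for Slc24a5 and Slc2a3 and more than 4-fold below both for Slc24a3, Slc28a2, Slc30a4 and Slc9a7.

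Transcripts of the 193 members made up a nearly equal part of the mRNA of every line. Their summed level ranged from 8313 TPM in YS line 3 to 9822 TPM in FL line 2, or 0.831% to 0.982% of all TPM. Of the 193 members, 157 were at 1 TPM or more in all 9 lines, 116 at 10 TPM or more in all 9, and 24 had a mean of 100 TPM or more. The members came from 42 families. By mean, 60 members were highest in the YS lines, 80 in the FL lines and 53 in the BM lines. The median SD of a member on the log2(TPM + 1) scale was 0.283 among YS lines, 0.208 among FL lines and 0.127 among BM lines, close to the 0.275, 0.183 and 0.115 of all genes tested.

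**Figure D1:**
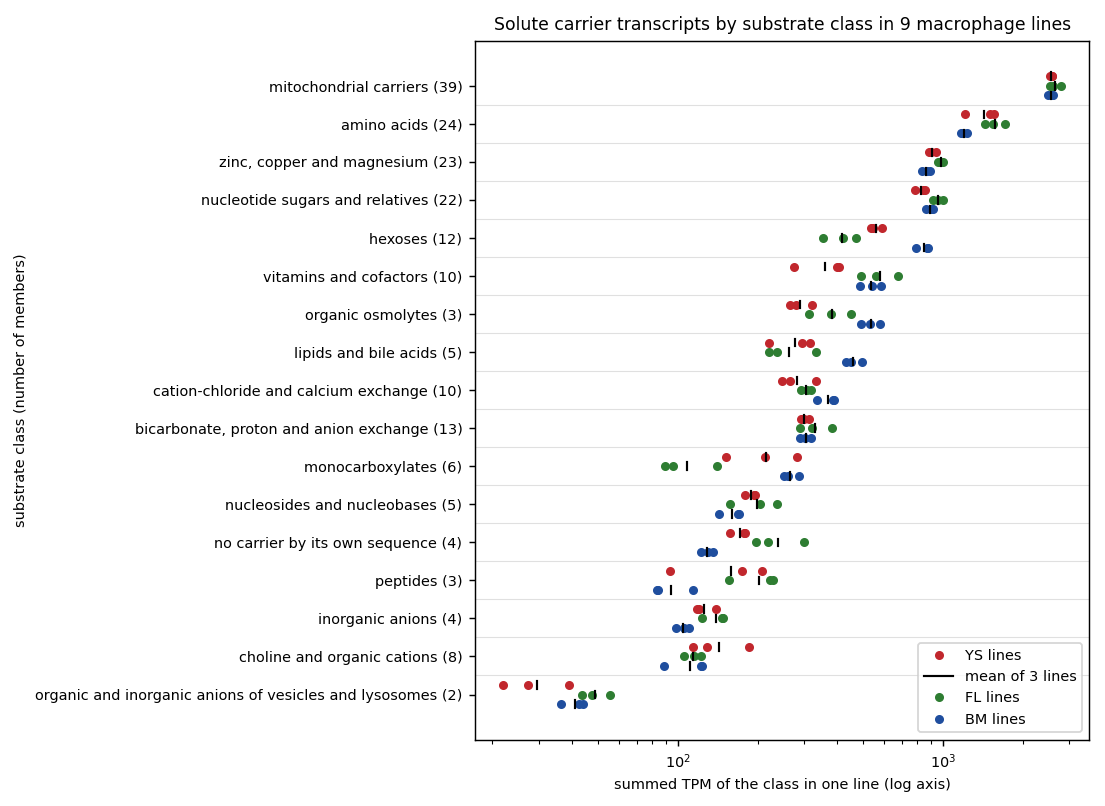
Summed TPM of the members of each substrate class (log axis) in each of the 9 lines, with YS lines in red, FL lines in green, BM lines in blue and a black bar at the mean of the 3 lines. The mitochondrial class, which leaves out Ucp2, lay within 2495 to 2801 TPM in all lines. The hexose sum was highest in the BM lines, with Slc37a2 making up 43.1% of it over the 9 lines. The monocarboxylate sum was lowest in the FL lines, with Slc16a3 making up 54.2% of it over the 9 lines.

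Between YS and BM lines, 29 of the 193 members were called (15.0%, against 12.8% of all genes tested). Of these, 19 were higher in the YS lines (9.84%, background 7.57%) and 10 were lower (5.18%, background 5.22%). The split depended on the scaling, with 12 higher and 13 lower under quantile normalization and 14 higher and 16 lower under median-of-ratios scaling. Between FL and BM lines, 32 members were called (16.6%, background 10.3%), 20 higher in the FL lines (10.4%, background 6.01%) and 12 lower (6.22%, background 4.3%). Between YS and FL lines, 14 were called (7.25%, background 3.79%), 7 higher in the YS lines (3.63%, background 1.95%) and 7 lower (3.63%, background 1.85%). The shares of members called were therefore near or above those of all genes, and no test of the difference was made. Counts of genes called in the classes and lists below can be read against the same background shares. The 3 lines of each group did not overlap for 103 members in the first comparison (53.4%, background 49.0%), for 100 in FL against BM lines (51.8%, background 49.5%) and for 61 in the last (31.6%, background 26.1%). The median difference of the members was 0.06, 0.13 and -0.09 in the 3 comparisons. In all, 51 members were called in at least 1 comparison and 142 in none. Calls kept in every fit that left out 1 line were 15 of 29 (YS against BM) and 24 of 32 (FL against BM). Between YS and FL lines they were only 2 of 14, those of Slc17a9 and Slc39a4. Some of those called passed the level limit only with the group where they were high. Among them, Slc15a2 and Slc6a17 needed the BM lines, and Slc22a21, Slc25a31 and Slc35f3 the FL lines. Slc13a2 and Slc2a3 needed the YS lines. The calls of such members are not independent of the limit.

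Without a call between YS and FL lines, 7 of the 51 members were called higher and 5 lower in both than in the BM lines. The 7 were Slc9a9, Slc25a23, Slc2a6, Slc46a3, Slc39a12, Slc37a1 and Slc31a2, and the 5 were Slc37a2, Slc6a17, Slc24a5, Slc19a2 and Slc15a2. Slc39a8 was also called higher in both, and it was called in all 3 comparisons, with FL lines highest and BM lines lowest. Slc39a4 was also called in all 3, with YS lines highest and FL lines lowest.

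**Figure D2:**
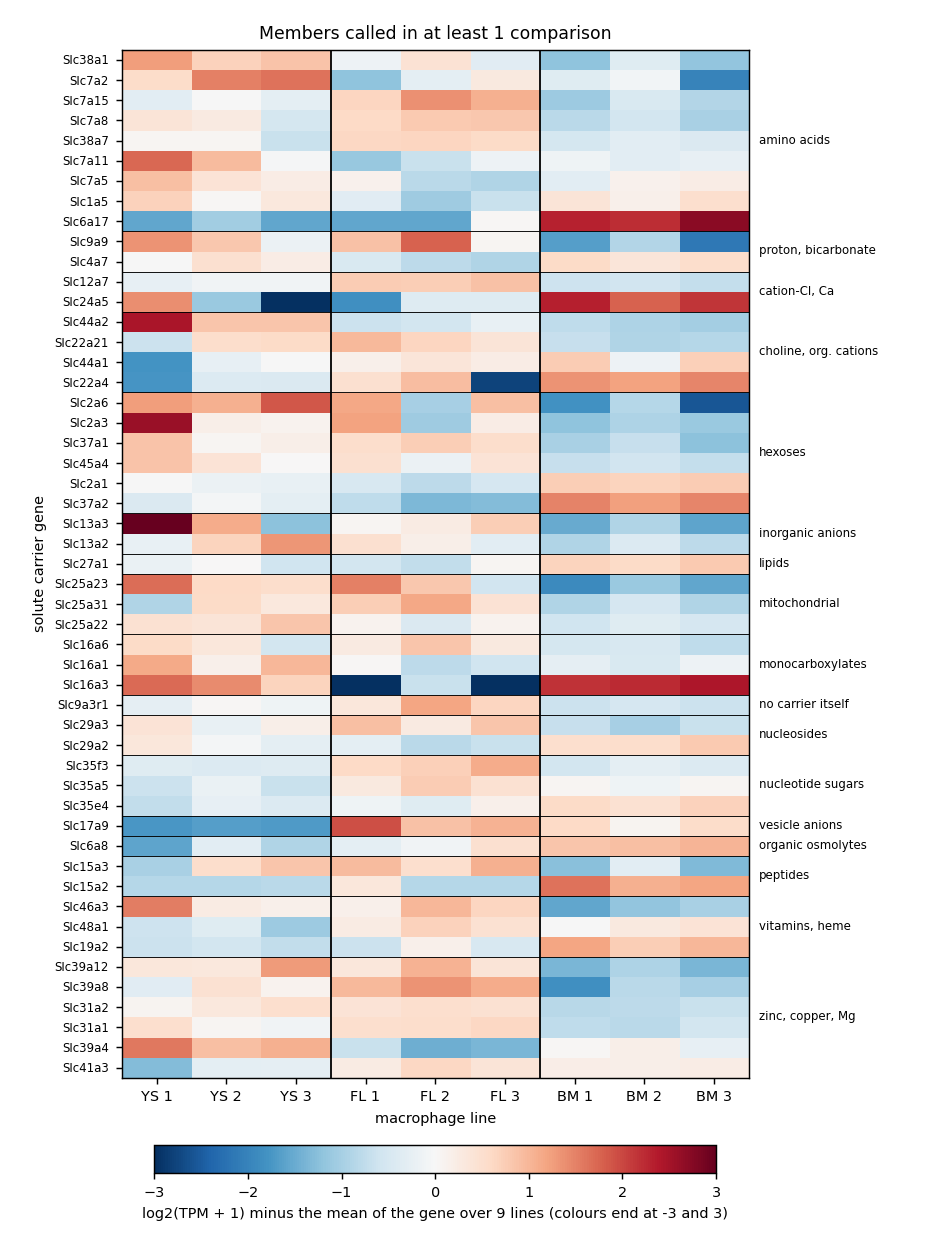
Level of the 51 members called in at least 1 comparison, as log2(TPM + 1) minus the mean of the gene over the 9 lines (red above, blue below the mean, with colours ending at -3 and 3), with lines in columns and genes in rows grouped by substrate. Slc6a17 and Slc37a2 were above their mean in all BM lines and below it in nearly all others, and Slc16a3 was far below its mean in FL lines 1 and 3.

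The most abundant members were mitochondrial. Slc25a5, which exchanges ADP and ATP across the inner membrane, had 484.41, 599.99 and 602.82 TPM in the YS lines, 701.65, 757.86 and 699.44 TPM in the FL lines and 642.35, 662.86 and 663.68 TPM in the BM lines. YS lines were the lowest group without overlap, but Slc25a5 was not called in any comparison. The phosphate carrier Slc25a3 ranged from 320.42 to 391.06 TPM and the other main ADP/ATP exchanger, Slc25a4, from 227.51 to 405.43 TPM, both with overlapping groups. Reads of Slc25a4, Slc25a5 and Slc25a31 can be split in error, since these genes are near-identical in part. The other members among the 10 with the highest means were the lysosomal heme carrier Slc48a1, the heavy chain Slc3a2, the taurine carrier Slc6a6, the amino acid light chain Slc7a8, the sugar phosphate carrier Slc37a2, the fatty acid transport protein Slc27a1 and the mitochondrial carrier Slc25a39, which serves the glutathione of mitochondria.

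The 39 mitochondrial carriers among the members summed to 2565 ± 25.0 TPM in the YS lines, 2642 ± 140.0 TPM in the FL lines and 2559 ± 58.0 TPM in the BM lines (mean ± SD, n = 3). This sum leaves out Ucp2, a mitochondrial carrier whose symbol does not begin with Slc. Ucp2 had means of 434, 636 and 1040 TPM in YS, FL and BM lines and was called lower in YS than in the BM lines. The median difference of the 39 members was 0.13 between YS and BM lines and 0.06 between FL and BM lines, where all genes had 0.11 and 0.09. Against BM lines, 2 were called higher in the YS lines and 2 in the FL lines, none was called lower, and none was called between YS and FL lines. The background of calls in either direction was 12.8% (YS against BM), 10.3% (FL against BM) and 3.79% (YS against FL). Slc25a23, a calcium-regulated carrier of ATP-Mg and phosphate, had 15.76, 7.03 and 6.65 TPM in the YS lines and 14.01, 8.27 and 2.52 TPM in the FL lines against 0.40, 1.45 and 0.80 TPM in the BM lines. All 6 YS and FL lines lay above all BM lines (log2 difference 2.46, SE 0.53, limma adjusted p = 0.0122 for YS lines, and 2.10, SE 0.53, adjusted p = 0.0255 for FL lines). The glutamate carrier Slc25a22 had 59.92, 56.35 and 77.76 TPM in the YS lines and 28.33, 33.46 and 29.94 TPM in the BM lines (log2 difference 1.05, limma adjusted p = 0.00594). It fell under the 2-fold limit without YS line 3 or BM line 1 (0.91 to 0.99). The testis-type exchanger Slc25a31, higher in FL than in the BM lines, was at 3.23 TPM or less in every line, and its call was lost without BM line 3 (limma adjusted p = 0.103). The citrate carrier Slc25a1, the dicarboxylate carrier Slc25a10 and the carnitine carrier Slc25a20 passed in no comparison. Slc25a1 averaged 50.5 ± 25.1, 56.8 ± 8.64 and 32.8 ± 3.93 TPM in YS, FL and BM lines (n = 3).

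The 12 members of the hexose class had their highest summed level in the BM lines, at 557.1 ± 29.7 TPM in the YS lines, 415.1 ± 59.3 TPM in the FL lines and 846.1 ± 48.2 TPM in the BM lines. The 6 members with Slc2 symbols, the pseudogene among them, did not share this order. They summed to 232.4 ± 29.3, 164.1 ± 39.8 and 202.0 ± 4.58 TPM in YS, FL and BM lines. Much of the class sum (43.1% over the 9 lines) was Slc37a2, a sugar phosphate carrier of the endoplasmic reticulum that is abundant in macrophages and osteoclasts. It had 146.53, 190.66 and 161.60 TPM in the YS lines, 116.76, 77.51 and 80.57 TPM in the FL lines and 557.30, 467.13 and 553.00 TPM in the BM lines. The 3 groups did not overlap, and BM lines held 3.16 times the mean of YS lines and 5.74 times that of FL lines (log2 differences -1.66, SE 0.18, limma adjusted p = 0.00119, and -2.53, SE 0.18, adjusted p = 0.000131). Between YS and FL lines it was not called (log2 difference 0.87, under the 2-fold limit). BM lines were also the lines with Ctsk, at 333.37, 90.21 and 1270.20 TPM, while the osteoclast marker Dcstamp was called higher in the YS lines. The part of osteoclast-like cells in the level of Slc37a2 was not tested. The related Slc37a1 went the other way, at 6.28 to 11.50 TPM in the YS lines and 9.05 to 10.51 TPM in the FL lines against 1.98 to 3.29 TPM in the BM lines, and was called higher in both (limma adjusted p = 0.00645 and 0.00324). Slc37a4, the glucose 6-phosphate carrier, was not called.

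Among the glucose facilitators of the Slc2 family, Slc2a1 and Slc2a6 were ordered differently across the groups. Slc2a1 encodes GLUT1, the common facilitator of growing cells. It had 90.03, 80.29 and 77.86 TPM in the YS lines, 64.99, 52.40 and 63.77 TPM in the FL lines and 153.55, 145.69 and 154.76 TPM in the BM lines. BM lines held 2.51 times the level of FL lines (log2 difference -1.32, SE 0.11, limma adjusted p = 0.000433) and every BM line lay above every YS line, although the difference from YS lines was under the 2-fold limit (-0.87, adjusted p = 0.00222).

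Slc2a6 encodes GLUT6, a facilitator of lysosomal membranes in macrophages. It had 95.75, 83.89 and 145.58 TPM in the YS lines, 89.52, 19.43 and 74.79 TPM in the FL lines and 10.53, 21.25 and 5.85 TPM in the BM lines. All YS lines lay above all BM lines, with 8.64 times their mean (log2 difference 3.14, SE 0.60, limma adjusted p = 0.00793, and 3.58 without BM line 2). FL line 2 fell among the BM lines, so the FL and BM groups overlapped although the difference was called (2.11, adjusted p = 0.0398). That call was lost without FL line 1 or 3 or BM line 1 or 3 (limma adjusted p from 0.115 to 0.143). Slc2a3, or GLUT3, had 12.98, 1.63 and 1.51 TPM in the YS lines, 4.38, 0.10 and 1.71 TPM in the FL lines, and 0.21 and 0.07 TPM in BM lines 2 and 3, and was listed at 0 in BM line 1. Its level in the YS lines came mainly from line 1, and its call against BM lines (log2 difference 2.05, adjusted p = 0.0693) was lost without YS line 1 or any BM line (log2 difference from 1.24 to 2.13, limma adjusted p from 0.128 to 0.167). Within the 5 members of the family that are carriers, Slc2a1 made up 76.0% ± 4.36 of the summed TPM in the BM lines, 36.4% ± 5.78 in the YS lines and 38.7% ± 6.16 in the FL lines (n = 3). Every BM line, at 71.2% to 79.7%, was above every other line, at 29.8% to 45.6%. The sugar carrier Slc45a4 had 49.33, 36.44 and 27.00 TPM in the YS lines and 16.31, 17.75 and 16.00 TPM in the BM lines (log2 difference 1.09, limma adjusted p = 0.0128, and 0.87 without YS line 1, under the 2-fold limit).

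**Figure D3:**
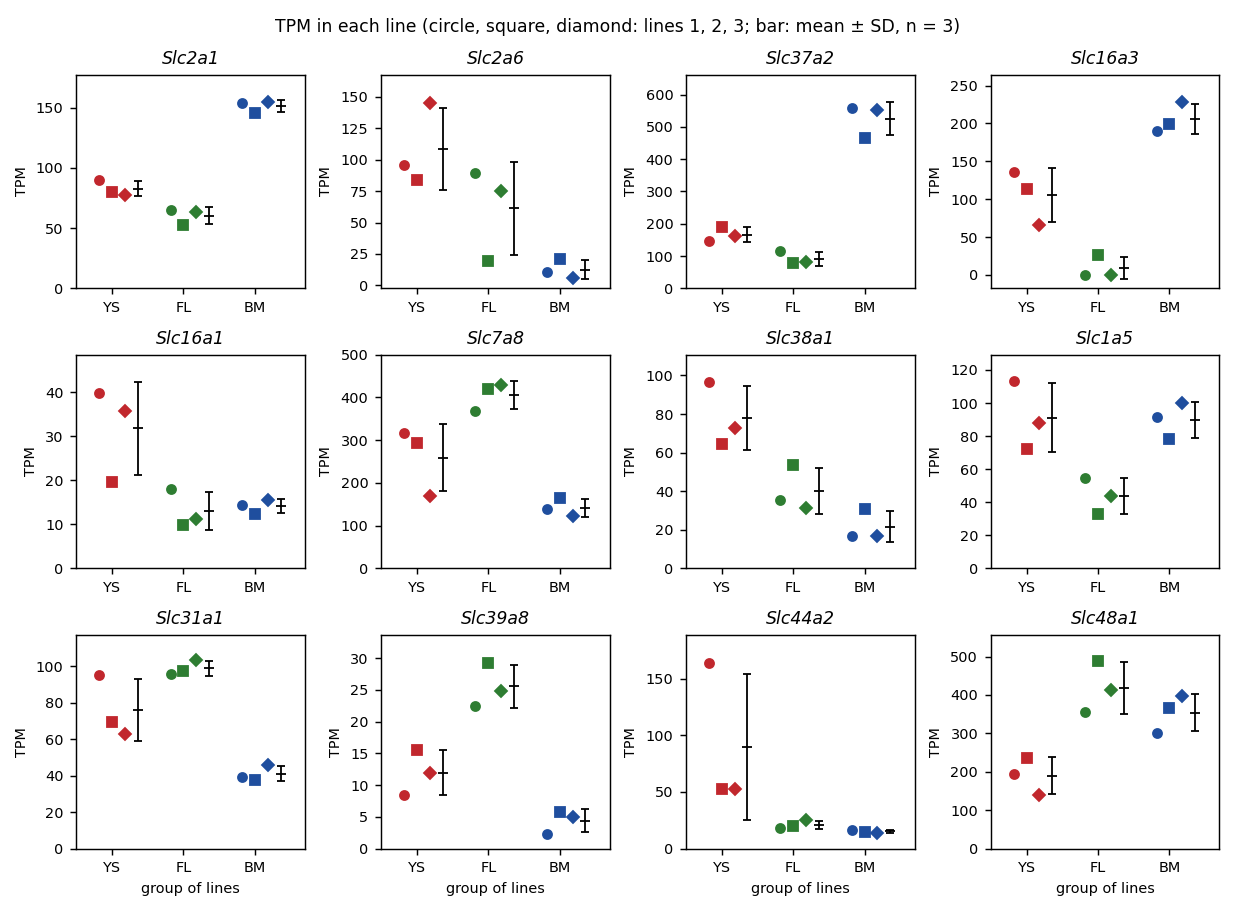
TPM of 12 members in each line (circle, square and diamond for lines 1, 2 and 3 of a group, with mean ± SD, n = 3, at the right of each group). BM lines stood above all others for Slc2a1 and Slc37a2, FL lines above all others for Slc39a8, and Slc16a3 was near 0 in FL lines 1 and 3.

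Of the lactate carriers, Slc16a3 was lowest in the FL lines. It encodes MCT4, which exports lactate from glycolytic cells. It had 136.08, 113.37 and 66.40 TPM in the YS lines and 190.06, 199.02 and 228.77 TPM in the BM lines but 0.21, 25.85 and 0.51 TPM in the FL lines. FL lines lay below all others, with lines 1 and 3 near 0 and line 2 more than 4-fold above them. The log2 difference was -5.82 against BM lines (SE 1.01, limma adjusted p = 0.00547) and that of YS over FL lines was 4.80 (SE 1.01, adjusted p = 0.0423). The call against YS lines was lost without FL line 3 (4.16, adjusted p = 0.128), and the difference from BM lines ranged from -7.25 to -5.02 over fits that left out 1 line each. YS lines were below BM lines without overlap, but this difference was not called (log2 difference -1.02, SE 1.01, limma adjusted p = 0.474). The spread is shared by all 9 lines, so the wide spread of the FL lines enters this p-value. It does not show that YS and BM lines were alike.

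Slc16a1, or MCT1, which carries lactate in either direction, had 39.86, 19.74 and 35.87 TPM in the YS lines, 17.94, 9.79 and 11.22 TPM in the FL lines and 14.42, 12.48 and 15.65 TPM in the BM lines. YS lines were the highest group without overlap and were called over BM lines (log2 difference 1.06, limma adjusted p = 0.0286) and over FL lines (1.22, adjusted p = 0.0536). The first call went under the 2-fold limit without YS line 1 or 3 or BM line 2 (0.87 to 0.98) and the other was lost without FL line 2 or 3 (adjusted p 0.152 to 0.156). Slc16a3 made up 92.9% to 94.1% of the sum of both genes in the BM lines and 64.9% to 85.2% in the YS lines. In FL lines its part was 1.16%, 72.5% and 4.35%, so that FL lines 1 and 3 held almost only Slc16a1. Bsg, the chaperone that takes both carriers to the surface, was at 313.65 to 509.96 TPM in all 9 lines and was not called. The ketone body and taurine carrier Slc16a6 had 48.18, 71.56 and 48.45 TPM in the FL lines and 27.37, 27.89 and 22.90 TPM in the BM lines (log2 difference 1.06, limma adjusted p = 0.033), with the call lost without FL line 2 or BM line 3 (0.87 to 0.97). Within the monocarboxylate class, FL lines had the lowest mean only for Slc16a3 and Slc16a1. BM lines had it for Slc16a6, Slc16a7 and Slc16a13, and YS lines for Slc16a5.

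Amino acid carriers, 24 members, summed to 1429 ± 185 TPM in the YS lines, 1570 ± 141 TPM in the FL lines and 1198 ± 31.3 TPM in the BM lines. Against BM lines, 3 were called higher and 1 lower in the YS lines (background 7.57% and 5.22% of all genes tested), and 3 higher and 2 lower in the FL lines (background 6.01% and 4.3%). Between YS and FL lines 3 were called higher and 1 lower (background 1.95% and 1.85%). Their median difference was 0.26 (YS against BM), 0.29 (FL against BM) and -0.05 (YS against FL). Most carriers of this class work alone, but the light chains among the Slc7 members reach the membrane together with a heavy chain such as Slc3a2, also known as CD98.

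Slc3a2 had 340.83, 322.27 and 203.98 TPM in the YS lines, 350.49, 419.53 and 401.20 TPM in the FL lines and 242.50, 262.03 and 234.30 TPM in the BM lines. FL lines were the highest group, but no difference passed the 2-fold limit (FL against BM lines 0.66, limma adjusted p = 0.0394). Its light chain Slc7a8, or LAT2, a carrier of neutral amino acids, had 316.60, 292.66 and 169.14 TPM in the YS lines, 369.43, 420.62 and 429.28 TPM in the FL lines and 138.33, 165.23 and 123.03 TPM in the BM lines. FL lines held 2.86 times the level of BM lines (log2 difference 1.52, SE 0.23, limma adjusted p = 0.00307). Slc7a8 made up 83.5% ± 2.60 of the summed TPM of the 5 light chains in the FL lines, 68.1% ± 2.94 in the YS lines and 63.0% ± 3.08 in the BM lines.

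The other light chains were highest in the YS lines where they were called. Slc7a5, or LAT1, which takes up large neutral amino acids, had 79.09, 55.84 and 48.84 TPM in the YS lines, 45.87, 23.30 and 22.00 TPM in the FL lines and 33.15, 45.84 and 48.49 TPM in the BM lines. The cystine carrier Slc7a11, or xCT, whose import feeds glutathione, had 13.07, 7.17 and 3.14 TPM in the YS lines, 0.93, 1.67 and 2.78 TPM in the FL lines and 2.84, 2.42 and 2.56 TPM in the BM lines. YS lines lay above FL lines without overlap for both genes (log2 difference 1.04, limma adjusted p = 0.0794 for Slc7a5, and 1.54, adjusted p = 0.0715 for Slc7a11). These calls were not stable. That of Slc7a5 was lost without YS line 1 or 2, FL line 2 or 3 or any BM line (limma adjusted p from 0.105 to 0.218), and that of Slc7a11 without YS line 1 or 2, any FL line or any BM line (0.113 to 0.174). Slc7a11 was also called over BM lines (1.12, adjusted p = 0.0816), and this was lost in 6 of the 9 fits that left out a line, without YS line 1 or 2, FL line 2 or any BM line (0.102 to 0.193). Slc7a7, the light chain of cationic amino acid export, was at 4.24 to 25.54 TPM and not called.

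Slc7a2, the cationic amino acid carrier that brings arginine to macrophages, had 19.75, 39.41 and 43.40 TPM in the YS lines against 10.05, 12.39 and 2.53 TPM in the BM lines, without overlap (log2 difference 2.05, SE 0.57, limma adjusted p = 0.0294). Its levels in the FL lines, 5.17, 10.62 and 16.50 TPM, were spread over those of the BM lines. Slc7a15, of the same family, was highest in the FL lines, at 3.80, 6.99 and 5.41 TPM against 1.48 to 2.06 TPM in the YS lines and 0.44 to 1.26 TPM in the BM lines (log2 difference 1.83, limma adjusted p = 0.00265 against BM lines, and -1.23, adjusted p = 0.0442 for YS against FL lines). The call between YS and FL lines was lost without FL line 2 or 3 (adjusted p 0.126 to 0.129).

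The glutamine carriers had unlike patterns. Slc1a5, or ASCT2, had 113.48, 72.20 and 87.65 TPM in the YS lines, 54.81, 32.93 and 43.63 TPM in the FL lines and 91.70, 78.38 and 99.88 TPM in the BM lines. FL lines were the lowest group without overlap (log2 difference -1.04 against BM lines, limma adjusted p = 0.0119, and 1.05 for YS over FL lines, adjusted p = 0.0407). The difference from BM lines fell under the 2-fold limit without FL line 2 or BM line 3 (-0.97 to -0.86), and the call between YS and FL lines was lost without YS line 1, FL line 2 or FL line 3 (0.86 to 1.06, adjusted p from 0.0654 to 0.119). Slc38a1, or SNAT1, had 96.56, 64.43 and 72.71 TPM in the YS lines, 35.54, 53.78 and 31.24 TPM in the FL lines and 16.68, 30.78 and 17.02 TPM in the BM lines. All 3 groups were ordered without overlap, and YS lines held 3.62 times the level of BM lines (log2 difference 1.85, SE 0.28, limma adjusted p = 0.00379). FL over BM lines was 0.89, under the 2-fold limit, and 1.17 without BM line 2 (adjusted p = 0.0238), past it. Its neighbour on the chromosome, Slc38a2 or SNAT2, did not follow, with means of 108.0 ± 8.62, 77.5 ± 3.41 and 108.0 ± 9.06 TPM in YS, FL and BM lines (n = 3). Slc38a7, a lysosomal glutamine exporter, had 49.92, 50.84 and 48.13 TPM in the FL lines and 21.87, 25.40 and 23.52 TPM in the BM lines (log2 difference 1.04, limma adjusted p = 0.00733, and 0.99 without BM line 1). The lysosomal amino acid sensor Slc38a9 stayed at 7.48 to 9.77 TPM in all lines.

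Slc6a17, a vesicular carrier of neutral amino acids known from neurons, was highest in the BM lines. It had 13.56, 12.65 and 18.31 TPM there, was listed at 0 in 4 of the other 6 lines, and had 0.44 TPM in YS line 2 and 2.03 TPM in FL line 3. The log2 difference was -3.79 for YS lines (SE 0.43, limma adjusted p = 0.00143) and -3.44 for FL lines (adjusted p = 0.00153), and both calls remained in all 9 fits that left out a line. Among other members of the class, the branched-chain carrier Slc43a2 was at 48.28 to 227.20 TPM, with FL line 2 at the highest value, and was not called. The lysosomal carrier Slc36a1 had 16.64 to 22.14 TPM in the YS lines and 32.96 to 41.10 TPM in the FL lines, a difference of -0.86 under the 2-fold limit (limma adjusted p = 0.0214). The neutral amino acid carrier Slc1a4 was at 1.88 to 11.30 TPM and not called.

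The class of 23 zinc, copper and magnesium carriers summed to 909.9 ± 29.8, 980.6 ± 21.3 and 867.2 ± 28.3 TPM in YS, FL and BM lines. Against BM lines, 4 were called higher and none lower in the YS lines (background 7.57% and 5.22% of all genes tested), and 4 higher and 1 lower in the FL lines (background 6.01% and 4.3%). The 4 higher in the FL lines were Slc31a1, Slc31a2, Slc39a8 and Slc39a12, and the 4 in the YS lines were Slc31a2, Slc39a4, Slc39a8 and Slc39a12. Slc31a1, or CTR1, the copper importer of the plasma membrane, had 95.03, 69.54 and 62.74 TPM in the YS lines, 95.79, 97.31 and 103.27 TPM in the FL lines and 39.46, 37.80 and 45.72 TPM in the BM lines. FL lines held 2.41 times the level of BM lines (log2 difference 1.25, SE 0.16, limma adjusted p = 0.00153). YS lines were above BM lines too but under the 2-fold limit (adjusted p = 0.00696). Slc31a2, its relative, which is held to release copper from endosomes and modulate Slc31a1, had 39.86, 46.67 and 53.55 TPM in the YS lines, 49.98, 53.70 and 51.89 TPM in the FL lines and 20.59, 21.28 and 23.37 TPM in the BM lines. All YS and FL lines lay above all BM lines (log2 difference 1.06, limma adjusted p = 0.00166 for YS lines, and 1.22, adjusted p = 0.000773 for FL lines). Without YS line 3 the difference of YS lines was 0.96, under the 2-fold limit.

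Of the zinc importers, Slc39a8, or ZIP8, had 8.46, 15.53 and 11.91 TPM in the YS lines, 22.53, 29.27 and 24.85 TPM in the FL lines and 2.32, 5.81 and 5.01 TPM in the BM lines. The 3 groups did not overlap, with FL lines highest, at 5.83 times the mean of BM lines (log2 difference 2.36, SE 0.30, limma adjusted p = 0.00159). YS lines were 1.3 above BM lines (adjusted p = 0.0155) and 1.06 below FL lines (-1.06, adjusted p = 0.0752). The call over BM lines went under the 2-fold limit without BM line 1 (0.98), and that between YS and FL lines was lost without YS line 1 or 3, FL line 2 or 3 or BM line 2 or 3 (log2 difference from -1.08 to -0.85). Slc39a4, or ZIP4, best known from the intestine, had 7.25, 4.17 and 4.80 TPM in the YS lines, 0.74, 0 and 0.07 TPM in the FL lines and 1.82, 2.15 and 1.35 TPM in the BM lines. It was ordered YS above BM above FL lines, again without overlap (log2 difference 1.19 for YS and -1.16 for FL lines against BM lines, limma adjusted p = 0.0191 and 0.0246, and 2.35 for YS over FL lines, adjusted p = 0.00894). Without YS line 1, the YS lines were 0.99 above BM lines. Slc39a12 was at 2.21 to 5.29 TPM in YS and FL lines and at 0.37 TPM in BM line 2, and was listed at 0 in BM lines 1 and 3 (limma adjusted p = 0.00629 for YS and 0.00712 for FL lines).

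Slc39a1, or ZIP1, the zinc carrier with the highest mean, ranged from 144.24 to 172.40 TPM over the 9 lines and was not called. The exporter Slc30a1, or ZnT1, averaged 13.1 ± 2.31, 14.4 ± 1.41 and 8.35 ± 0.735 TPM in YS, FL and BM lines. BM lines lay below all others, but both differences (0.58 and 0.72, limma adjusted p = 0.0295 and 0.0158) were under the 2-fold limit. The magnesium carrier Slc41a3 had 5.43, 11.94 and 12.07 TPM in the YS lines and 17.76, 23.31 and 19.67 TPM in the FL lines (log2 difference -1.04, limma adjusted p = 0.0605). Its call was lost without YS line 1, FL line 2 or 3 or any BM line (-1.05 to -0.70, adjusted p from 0.0402 to 0.169).

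The class of vitamin and cofactor carriers held the highest member outside mitochondria, Slc48a1, or HRG1, which moves heme out of the lysosomes of macrophages that digest red cells. It had 193.89, 234.94 and 139.53 TPM in the YS lines, 355.43, 488.78 and 411.76 TPM in the FL lines and 300.17, 365.71 and 396.61 TPM in the BM lines. YS lines were the lowest group without overlap. They were called below FL lines (log2 difference -1.16, SE 0.21, limma adjusted p = 0.0265, and -0.96 without YS line 3), and below BM lines the difference was under the 2-fold limit (-0.92, adjusted p = 0.014). Slc46a3, a lysosomal relative of the proton-coupled folate carrier, had 36.63, 14.31 and 13.49 TPM in the YS lines, 13.54, 24.76 and 19.18 TPM in the FL lines and 3.45, 4.70 and 5.64 TPM in the BM lines. All BM lines lay below all others (log2 difference 1.88, limma adjusted p = 0.0096 for YS lines, and 1.83, adjusted p = 0.0117 for FL lines). The thiamine carrier Slc19a2 went the other way, at 19.77, 14.09 and 17.20 TPM in the BM lines against 4.44 to 5.22 TPM in the YS lines and 4.82 to 9.06 TPM in the FL lines (log2 difference -1.62, limma adjusted p = 0.00284, and -1.3, adjusted p = 0.0054). The folate carrier Slc19a1 and the acetyl-CoA carrier Slc33a1 were not called, at 5.38 to 23.14 TPM and 14.83 to 39.03 TPM.

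Of the 5 nucleoside and nucleobase carriers, 1 was called higher and 1 lower in FL than in the BM lines, and none was called in the other comparisons. Slc29a3, or ENT3, which releases nucleosides from lysosomes, had 25.30, 15.76 and 21.25 TPM in the YS lines, 35.49, 22.77 and 33.82 TPM in the FL lines and 11.12, 8.89 and 11.40 TPM in the BM lines. FL lines held 2.93 times the level of BM lines (log2 difference 1.45, SE 0.22, limma adjusted p = 0.00327). Slc29a2 was lower in the FL lines, at 0.91 to 1.72 TPM against 3.80 to 4.79 TPM in the BM lines (-1.20, adjusted p = 0.00955). Slc29a1, the equilibrative carrier of the plasma membrane, and the purine nucleobase carrier Slc43a3 were not called, at 28.80 to 80.99 TPM and 48.78 to 96.11 TPM.

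Slc15a3 and Slc15a4 export histidine and bacterial dipeptides from endolysosomes. Slc15a3 had 42.62, 122.93 and 150.95 TPM in the YS lines, 163.93, 120.99 and 178.37 TPM in the FL lines and 35.16, 67.86 and 32.97 TPM in the BM lines. FL lines were above BM lines (log2 difference 1.81, SE 0.46, limma adjusted p = 0.0266), a call lost without BM line 3 (1.62, adjusted p = 0.103). YS line 1 fell among the BM lines, and YS lines were called above BM lines in the fit without BM line 2 (1.42, limma adjusted p = 0.0783). Slc15a4 was at 34.85 to 58.49 TPM in all lines. The peptide importer Slc15a2, at 4.64, 2.77 and 3.14 TPM in the BM lines, was listed at 0 in 4 of the other 6 lines and at 0.04 and 1.29 TPM in YS line 3 and FL line 1 (limma adjusted p = 0.00483 for YS and 0.0107 for FL lines). The sialic acid exporter Slc17a5 was not called, at 21.68 to 48.94 TPM.

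Slc17a9, or VNUT, loads ATP into vesicles for release. It had 0.20, 0.28 and 0.24 TPM in the YS lines against 14.44, 6.37 and 7.25 TPM in the FL lines and 5.04, 3.27 and 4.93 TPM in the BM lines. YS lines lay below all others (log2 difference -2.11 against BM lines, SE 0.29, limma adjusted p = 0.00288, and -2.98 against FL lines, adjusted p = 0.00404). Both calls were kept in all 9 fits that left out a line.

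Of 13 members that exchange protons, bicarbonate or anions, Slc9a9 was called higher in both YS and FL lines and Slc4a7 lower in the FL lines, against BM lines. Slc9a9, or NHE9, a sodium and proton exchanger of endosomes, had 78.84, 54.37 and 26.84 TPM in the YS lines, 57.26, 105.99 and 32.14 TPM in the FL lines and 9.10, 16.15 and 6.17 TPM in the BM lines. All 6 YS and FL lines lay above the BM lines (log2 difference 2.21, SE 0.52, limma adjusted p = 0.0168, and 2.46, adjusted p = 0.0128). Slc4a7, a sodium bicarbonate cotransporter that works in phagosome acidification, had 20.98, 16.57 and 15.12 TPM in the FL lines and 43.67, 37.35 and 42.02 TPM in the BM lines (log2 difference -1.19, SE 0.17, limma adjusted p = 0.00237). YS lines, at 28.74 to 40.81 TPM, lay above FL lines without overlap, but this difference was under the 2-fold limit (adjusted p = 0.0264). The anion exchanger Slc4a2 was not called.

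Among the 10 cation-chloride and calcium exchangers, the potassium-chloride cotransporter Slc12a7 had the smallest standard error of the members called between FL and BM lines. It had 67.37, 67.04 and 73.26 TPM in the FL lines against 33.51, 36.93 and 36.56 TPM in the YS lines and 25.30, 26.17 and 23.81 TPM in the BM lines (FL over BM lines 1.43, SE 0.10, limma adjusted p = 0.000131). The difference of YS from FL lines was -0.94 (adjusted p = 0.0056), under the 2-fold limit. Slc24a5, a calcium exchanger known from the organelles of pigment cells, had 77.64, 12.78 and 0.99 TPM in the YS lines, 7.33, 21.90 and 21.87 TPM in the FL lines and 149.81, 100.16 and 131.21 TPM in the BM lines. BM lines were above all others, and YS line 1 was more than 4-fold above, and YS line 3 more than 4-fold below, both other YS lines. The wide spread made its calls fragile (log2 difference -3.29, SE 1.10, limma adjusted p = 0.0557, and -2.95, adjusted p = 0.0971). The call in the YS lines was lost without YS line 2 or any BM line (0.102 to 0.146), and that in the FL lines without YS line 2, any FL line or any BM line (0.127 to 0.240). The sodium, potassium and chloride cotransporter Slc12a2 and the sodium and calcium exchangers Slc8a1 and Slc8b1, the latter in mitochondria, were not called.

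Choline and organic cation carriers held a contrast within a family. Slc44a2 and Slc44a1 are choline carrier-like proteins. Slc44a2 had 164.09, 52.62 and 52.70 TPM in the YS lines, 18.27, 19.69 and 24.81 TPM in the FL lines and 16.77, 14.86 and 13.84 TPM in the BM lines. All YS lines lay above all others (log2 difference 2.28 over BM lines, SE 0.39, limma adjusted p = 0.00546, and 1.84 over FL lines, adjusted p = 0.0434). The highest value came from YS line 1. Without that line the difference was 1.74 over BM lines and 1.3 over FL lines and remained called, while the call over FL lines was lost without FL line 2 or 3 (adjusted p 0.104 to 0.119). Slc44a1 was lower in YS than in the BM lines (log2 difference -1.13, limma adjusted p = 0.0903), but the groups overlapped, at 9.34, 29.15 and 34.80 against 60.19, 31.12 and 58.04 TPM. This call was lost without YS line 1, any FL line or BM line 1 or 3 (log2 difference from -1.13 to -0.57, adjusted p from 0.112 to 0.238).

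In the Slc22 family, Slc22a4, which carries ergothioneine, had 1.15, 4.51 and 4.41 TPM in the YS lines and 17.61, 15.89 and 19.22 TPM in the BM lines (log2 difference -2.21, limma adjusted p = 0.0872, lost without any YS or any BM line, at -2.44 to -1.76 and adjusted p from 0.107 to 0.205). FL lines were split, with 9.16 and 12.91 TPM in lines 1 and 2 and 0.07 TPM in line 3. Slc22a21, its neighbour, was higher in FL than in the BM lines, at 5.09, 3.84 and 3.04 against 0.92, 0.66 and 0.71 TPM (1.48, limma adjusted p = 0.0178). These genes and Slc22a5 lie side by side and are close in sequence, so that short reads can be assigned to the wrong gene.

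Of the 3 members of the osmolyte class, 1 was called, lower in the YS lines than in the BM lines. The creatine carrier Slc6a8 had 33.36, 82.09 and 54.06 TPM in the YS lines, 83.49, 94.69 and 142.40 TPM in the FL lines and 181.85, 192.99 and 210.22 TPM in the BM lines. BM lines held 3.45 times the level of YS lines (log2 difference -1.86, SE 0.31, limma adjusted p = 0.0048). The taurine carrier Slc6a6 had 208.35 to 243.86 TPM in the YS lines and 298.07 to 369.63 TPM in the BM lines, a difference of -0.55 (adjusted p = 0.0207). The fatty acid transport protein Slc27a1 had 205.34, 238.50 and 155.78 TPM in the YS lines, 161.43, 141.38 and 248.58 TPM in the FL lines and 374.66, 350.63 and 411.19 TPM in the BM lines. BM lines were above all others, with a call against FL lines (log2 difference -1.08, SE 0.22, limma adjusted p = 0.0119, and -0.91 without FL line 2) and a difference from YS lines under the 2-fold limit (adjusted p = 0.0177).

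The inorganic anion class has 4 members. The sodium and phosphate carrier Slc20a1 had 96.02 to 106.68 TPM in the YS lines, 109.78 to 132.33 TPM in the FL lines and 76.43 to 90.06 TPM in the BM lines and was not called, while BM lines were the lowest group without overlap. Slc13a3, a dicarboxylate carrier that also takes up itaconate, had 24.55, 5.52 and 0.27 TPM in the YS lines, 2.12, 2.58 and 3.99 TPM in the FL lines and 0.05, 0.61 and 0 TPM in the BM lines. YS line 3 fell among the BM lines, and its call (log2 difference 2.32, limma adjusted p = 0.0837) was kept only in the fit without YS line 3 and lost in the other 8 fits that left out a line (1.27 to 2.54, adjusted p from 0.105 to 0.197). Slc13a2 was also called higher in the YS lines, at 0.59 to 3.66 TPM against 0.39 TPM or less in the BM lines (adjusted p = 0.0455, lost without YS line 3, BM line 1 or BM line 3).

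The 22 nucleotide sugar carriers and relatives of the Slc35 family serve the Golgi and the endoplasmic reticulum. They summed to 828.4 ± 36.6 TPM in the YS lines, 959.1 ± 44.5 TPM in the FL lines and 893.3 ± 28.9 TPM in the BM lines, with a median difference of -0.17 (YS against BM), 0.18 (FL against BM) and -0.27 (YS against FL). The highest, Slc35a4, was at 115.91 to 183.71 TPM, and Slc35b1, which brings ATP into the endoplasmic reticulum, at 77.16 to 118.71 TPM. The sialic acid donor carrier Slc35a1 was at 11.27 to 19.16 TPM, and none of these was called. Slc35e4, of no known substrate, had 27.17 to 38.33 TPM in the YS lines and 62.77 to 74.67 TPM in the BM lines (-1.04, limma adjusted p = 0.00473, and -0.98 to -0.91 without YS line 1 or BM line 3). Slc35a5 was lower in YS than in the FL lines (-1.02, adjusted p = 0.025, and -0.95 to -0.89 without YS line 1 or 3 or FL line 2). Slc35f3, called higher in the FL lines, was the member that passed the level limit by FL lines alone. It had 1.23, 1.43 and 2.19 TPM there against 0.20 TPM or less in the others, and its call between YS and FL lines was lost without FL line 3 (adjusted p = 0.123).

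Of the members that are not carriers themselves, Slc9a3r1, the scaffold protein NHERF1, had 129.29, 233.74 and 160.13 TPM in the FL lines and 64.59, 72.18 and 64.90 TPM in the BM lines (log2 difference 1.32, SE 0.20, limma adjusted p = 0.00302).

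**Figure D4:**
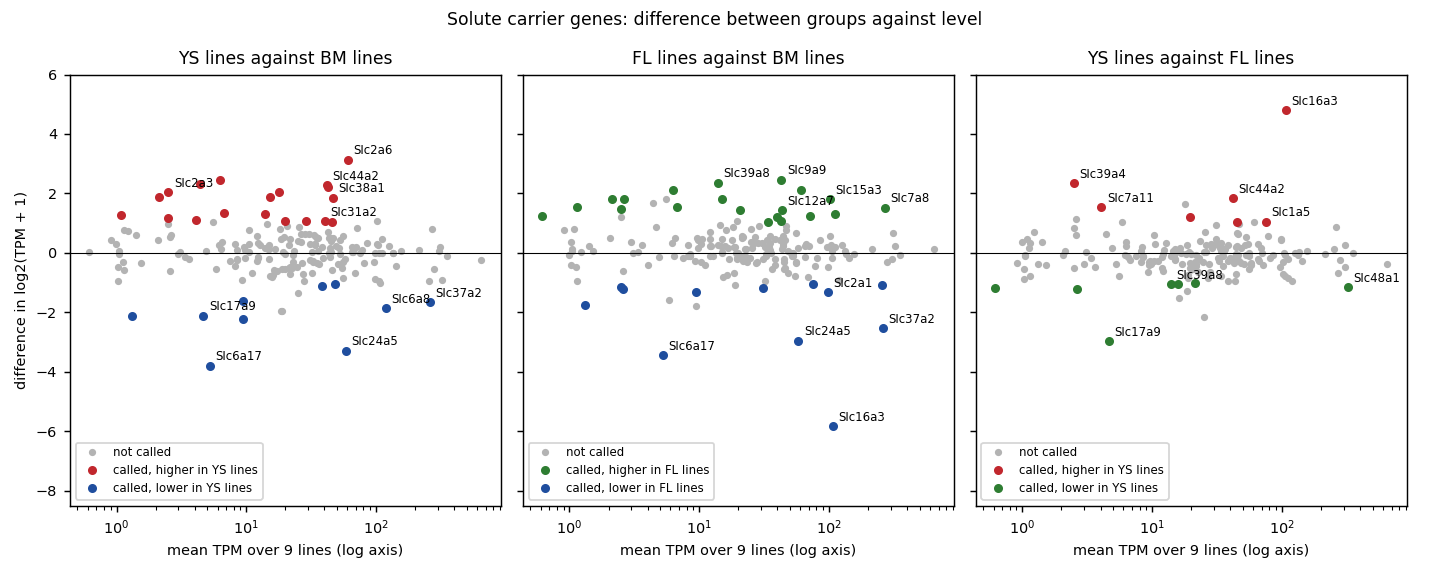
Difference in log2(TPM + 1) between 2 groups against the mean TPM over the 9 lines (log axis) for the 193 members, with 1 panel per comparison, members called in colour, others in grey, and some members named. Called members lay over the whole range of levels, and Slc16a3 had the largest difference in both comparisons with FL lines (-5.82 and 4.80).

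Carriers whose symbol does not begin with Slc were read from the same fit. Of 41 listed, 22 were tested. Against BM lines, 1 was called higher and 5 lower in the YS lines (background 7.57% and 5.22% of all genes tested). In the FL lines, 2 were called higher and 2 lower (background 6.01% and 4.3%). Between YS and FL lines 2 were called higher and 1 lower (background 1.95% and 1.85%). The lysosomal cholesterol exporter Npc1 had 96.26, 106.52 and 80.23 TPM in the YS lines and 262.42, 218.44 and 248.73 TPM in the BM lines (log2 difference -1.36, limma adjusted p = 0.000645). The mitochondrial carrier Ucp2, at 1170.95, 971.30 and 974.90 TPM in the BM lines and 490.07, 441.76 and 369.28 TPM in the YS lines, was lower in the YS lines (-1.26, adjusted p = 0.00473). Pqlc1 and Pqlc3, of the PQ-loop family, were lower in YS than in the BM lines (-1.57 and -1.56, limma adjusted p = 0.00404 and 0.00157), as was Mfsd7a (-1.52, adjusted p = 0.0681). Pqlc1 was also called lower in the FL lines (-1.14, limma adjusted p = 0.0139). Their relative Pqlc2 went the other way and was called higher in FL than in the BM lines (1.1, limma adjusted p = 0.0131). In the YS lines it was 0.75 above BM lines, under the 2-fold limit (adjusted p = 0.0442). The organic anion carrier Slco4a1 had 0.47, 0 and 0.20 TPM in the FL lines against 5.37 to 16.50 TPM in the others (FL against BM lines -3.27, adjusted p = 0.00114), and Slco2b1 had 21.69, 2.91 and 13.70 TPM in the YS lines against 1.80 TPM or less elsewhere (3.27 over BM lines, adjusted p = 0.00663).

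Of 19 listed chaperones and regulators of carriers, 15 were tested and 1 was called, Sestd1, lower in YS than in the BM lines (-1.05, limma adjusted p = 0.057). No listed transcription factor that was tested was called. Under the 2-fold limit, Atf4 and Mitf were lower in FL than in the BM lines (-0.67 and -0.89, limma adjusted p = 0.00484 and 0.0307). Nfe2l2 and Mtf1 were higher there (0.37 and 0.61, adjusted p = 0.0339 and 0.0166). Myc ranged from 49.95 to 182.85 TPM. The part of these factors in the carrier levels was not tested. Atf4, which drives amino acid carriers under amino acid shortage, was at 312.15 to 609.08 TPM, Hif1a, which drives Slc2a1 and Slc16a3 under low oxygen, at 54.59 to 77.52 TPM, and Nfe2l2, which drives Slc7a11, at 120.33 to 173.57 TPM.

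Promoter sequences were read for short motifs of such factors, from 250 bases before to 50 after each start site (RefSeq, GRCm38.p6), which 149 of the 193 members had. Members had more windows per gene (201 for 149) than all genes with a promoter (32851 for 27025). The latter were not chosen by level as the members were. Shares of members and of all promoters below are thus not like for like. The AP-1 motif TGANTCA was present on either strand for 8.97% of all 27025 genes with a promoter and for 12 of 149 members (8.05%). Of the members called lower in YS than in the BM lines, 3 of 8 held it (37.5%), and of those called lower in FL lines 3 of 10 (30.0%). Of those called higher, 1 of 14 (7.14%) and 2 of 17 (11.8%) held it. In both lower sets they were Slc37a2, Slc6a17 and Slc24a5, 3 of the 5 members called lower in both YS and FL lines, although both calls of Slc24a5 were lost when any 1 of the BM lines was left out. Their stretches are shown because BM lines lay above all others for each of them, with the motif in capitals, and Slc6a17 has 2 start sites with a match.
Slc37a2, chr9:37255829-37255855, minus strand: ccgcagatcaTGAGTCAgcgcggtggt
Slc6a17, chr3:107518035-107518061, minus strand: ggcccgcgcgTGAGTCAagcctgcgtc
Slc6a17, chr3:107500755-107500781, minus strand: gaattgtcagTGAATCAtctgctgctc
Slc24a5, chr2:125068108-125068126, plus strand: actgctcacaTGATTCAgc

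The E-box CACGTG, which TFEB, TFE3, MITF and MYC can bind, was found for 28 of 149 members (18.8%) against 8.09% of all promoters. Its share was 4 of 14 members called higher in YS than in the BM lines (28.6%), 5 of 17 in the FL lines (29.4%), 1 of 8 called lower in the YS lines and 1 of 10 in the FL lines. The antioxidant element TGACNNNGC was found for 35 of 149 members (23.5%) against 14.0% of all promoters, and for 7 of 14 members higher in YS than in the BM lines, for 4 of 17 higher in the FL lines (23.5%), and for 1 of 8 and 1 of 10 of those lower in YS and FL lines. The element TGATGNAAT of ATF4 and C/EBP was found in no member's window (1.08% of all promoters), and the PU.1 motif GAGGAAGT for 5 of 149 members (3.36%, against 3.69%). E-box and antioxidant matches overlapped in Slc16a1, whose stretch is shown beside that of Slc39a8, which like Slc39a4 was called in all 3 comparisons, both with the E-box in capitals. A match is a string of letters and not a tested site.
Slc16a1, chr3:104638454-104638479, plus strand: ggcgccgggtCACGTGgcgggaaggg
Slc39a8, chr3:135825576-135825601, plus strand: agtgtgacacCACGTGcttcaggggc

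In bulk RNA, a lower level in a line can come from fewer cells with a transcript or from less transcript per cell, and these cannot be told apart here.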

How the data were processed

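RNA-seq of 9 macrophage lines was used (3 YS, 3 FL and 3 BM lines, assigned from the sample labels). After poly(A) selection and a directional library kit, the authors read 75 nt from a single end and deposited 1 table of TPM by gene symbol. The submitters' processing notes name Trim Galore 0.6.6, STAR 2.7.9a and RSEM 1.3.3, while the genome build and whether counting used strand are not given in the sources used here. The study's own comparisons used raw counts, which were not used here.

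Values were taken as log2(TPM + 1). Genes at 1 TPM or more in 3 or more libraries were tested with limma 3.58.1 in R 4.3.3 (1 model of group means over 9 libraries, intensity trend, Benjamini-Hochberg adjustment within a comparison over 11753 genes, called under 0.1 and over 2-fold). On simulated data with 200 of 11753 genes changed 4-fold, the test called 86.0% of them in the comparison of YS with BM lines and 87.0% in that of YS with FL lines. The simulated lines had normal noise with the same spread in every group. In the data the median SD of all genes tested was 0.275 among YS and 0.115 among BM lines, so these rates need not hold there. Tables were joined with Python 3.11.15 and pandas 2.3.3, and figures drawn with matplotlib 3.10.9. All 193 members matched the RefSeq gene table and 149 had a promoter sequence.

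Named genes followed a rule: in each comparison the 5 members highest and the 5 lowest by log2 difference among those called without overlap, the 10 with the highest mean, the highest of each substrate class of 3 or more, and a list of carriers with a known part in macrophages or cell nutrition. Other named members were called in some comparison, or were picked with their values in view, and a gene that the rule names is not reported here. The members, classes and lists were chosen with earlier results of these data known. Alternatives changed the pseudocount, level limit, scaling, variance trend, libraries, thresholds, the replicate block, the choice of members, and which single line was left out.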

Additional observations from a re-analysis of the deposited data

How the results depend on the processing

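Of 54 named differences that were called, 24 kept the call under every alternative, 30 in every fit that left out 1 line, and none reversed in any alternative run. The comparisons differed in this. Over all members called, 12 of the 14 calls between YS and FL lines were lost in some fit that left out 1 line. For FL against BM lines it was 8 of 32, and for YS against BM lines 14 of 29. With a pseudocount of 4, the number of members called was 14 (YS against BM), 21 (FL against BM) and 7 (YS against FL). With no fold threshold, 83, 65 and 33 were called. Between YS and FL lines, 9 were called at an adjusted p under 0.05 and 2 when only the 6 libraries of the comparison were fitted. Leaving out 1 line gave 21 to 33, 26 to 36 and 5 to 18 calls in the same order, and in the last comparison the count was 9 without YS line 1 and 5 without FL line 2 or FL line 3. The cause of these changes was not tested, beyond the fewer libraries or the looser or stricter limit that each alternative sets by construction. With the replicate number as a block, 25, 32 and 12 members were called. Same-numbered lines did not deviate together (correlations of -0.118 to 0.088), so the numbers were not taken to pair the lines. TPM keeps no depth, so that counting error behind a low value is unknown.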
